A study of Mus musculus with 4 samples.

Results

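The genes of Polycomb repressive complex 2 (PRC2) and of the histone demethylase Kdm6b were examined in peritoneal macrophages with and without the DNA methyltransferase Dnmt1. The 10 genes were taken by their symbols from a table of 13834 genes: the catalytic subunits Ezh1 and Ezh2, the core subunits Eed, Suz12, Rbbp4 and Rbbp7, the accessory subunits Jarid2, Mtf2 and Phf19, and Kdm6b. All 10 were found, and all 10 passed the filter on low counts, as did 12542 genes in total. RNA was sequenced from 4 samples, 2 of each genotype. Both genotypes were floxed at Dnmt1, and the Dnmt1KO mice also expressed Cre recombinase from the LysM promoter, which is active in myeloid cells. The Dnmt1fl/fl controls, whose genotype field reads wt, carried no Cre. The mice were 10 weeks old, and the cells were washed from the peritoneal cavity 3 days after an injection of thioglycolate broth, which draws leukocytes into it, and were then kept in culture. The labels do not say whether a sample was 1 mouse or a pool, so the p-values measure only the spread between these samples.

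PRC2 places methyl groups on lysine 27 of histone H3 (H3K27), a mark that keeps genes silent. EZH1 or EZH2 carries the catalytic site, SUZ12 is the scaffold, EED binds the mark already made, and RBBP4 or RBBP7 holds the histone. MTF2, PHF19 and JARID2 help to bring the complex to chromatin, the first of these through DNA rich in unmethylated CpG dinucleotides, the sites that DNMT1 keeps methylated when DNA is copied. KDM6B and its relative KDM6A remove the mark, and in macrophages Kdm6b is known as a gene induced by inflammatory stimuli. EZH2 is typical of dividing cells, whereas EZH1 is also abundant in cells that do not divide.

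The RefSeq promoter table on GRCm38.p6 held 11 windows for 9 of the 10 genes, each running from 250 bases before the annotated start to 50 after it, and none was held for Kdm6b. They were read because CpG dinucleotides are the substrate of DNMT1, though no methylation was measured here. Of the 11 windows, 10 held between 17 and 41 CpG, against a median of 7 over all 32851 windows of the table, whose quartiles were 3 and 20. The other window, the second of Mtf2, held 2. The 32851 windows cover 27025 symbols and so are not limited to the 13834 genes counted in these cells. The windows of the catalytic pair, of Suz12, which had the most CpG, and of both starts of Mtf2 are shown 5′ to 3′ along the gene, with each CpG in capitals.

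Ezh1 (chr11:101226414-101226713, minus strand, 23 CpG): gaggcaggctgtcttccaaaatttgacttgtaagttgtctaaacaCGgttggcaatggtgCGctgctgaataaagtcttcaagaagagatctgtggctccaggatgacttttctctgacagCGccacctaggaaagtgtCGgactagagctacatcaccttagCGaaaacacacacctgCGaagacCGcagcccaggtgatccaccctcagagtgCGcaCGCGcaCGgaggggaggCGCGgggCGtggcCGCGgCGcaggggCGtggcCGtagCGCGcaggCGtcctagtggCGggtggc
Ezh2 (chr6:47594981-47595280, minus strand, 31 CpG): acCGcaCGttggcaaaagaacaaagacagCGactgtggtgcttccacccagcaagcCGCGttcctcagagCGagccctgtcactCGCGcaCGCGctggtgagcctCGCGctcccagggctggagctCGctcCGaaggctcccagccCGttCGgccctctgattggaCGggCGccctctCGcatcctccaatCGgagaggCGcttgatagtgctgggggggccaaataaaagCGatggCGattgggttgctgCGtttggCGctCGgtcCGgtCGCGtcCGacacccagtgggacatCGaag
Suz12 (chr11:79992856-79993155, plus strand, 41 CpG): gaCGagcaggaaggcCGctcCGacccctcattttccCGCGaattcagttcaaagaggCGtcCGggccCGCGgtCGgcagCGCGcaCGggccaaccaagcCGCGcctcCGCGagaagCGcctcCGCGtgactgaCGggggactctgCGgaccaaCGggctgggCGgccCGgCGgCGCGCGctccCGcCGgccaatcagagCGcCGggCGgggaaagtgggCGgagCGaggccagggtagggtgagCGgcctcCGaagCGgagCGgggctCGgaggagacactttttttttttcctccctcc
Mtf2, first start (chr5:108065424-108065723, plus strand, 30 CpG): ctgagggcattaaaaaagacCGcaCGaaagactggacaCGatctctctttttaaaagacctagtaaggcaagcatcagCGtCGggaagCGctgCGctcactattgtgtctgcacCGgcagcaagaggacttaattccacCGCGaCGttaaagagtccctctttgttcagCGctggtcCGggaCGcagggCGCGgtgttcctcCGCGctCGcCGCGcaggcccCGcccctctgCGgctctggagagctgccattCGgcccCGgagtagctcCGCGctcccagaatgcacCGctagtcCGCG
Mtf2, second start (chr5:108077915-108078214, plus strand, 2 CpG): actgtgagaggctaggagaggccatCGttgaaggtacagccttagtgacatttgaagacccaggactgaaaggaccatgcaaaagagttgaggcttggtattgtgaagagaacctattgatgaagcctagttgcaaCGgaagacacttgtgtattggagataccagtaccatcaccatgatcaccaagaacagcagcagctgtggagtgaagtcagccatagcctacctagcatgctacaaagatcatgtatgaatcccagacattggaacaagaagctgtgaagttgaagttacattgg

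The observed CpG number over that expected from the C and G content was 0.88 for Ezh1, 1.00 for Ezh2, 1.09 for Suz12 and 1.09 for the first start of Mtf2, but 0.13 for the second, with a median of 0.38 over all windows. The E2F motif TTTNGCGC, in which N is any base, was searched on both strands. It occurred in 1 of the 11 windows, that of Ezh2, as TTTGGCGC from base 4 after the start, and in 1.38% of all windows of this length. A match is a description of the letters and not a bound site.

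Totals ran from 20228082 to 24198959 counts per sample. Dnmt1 was at 86.6 and 67.0 CPM (counts scaled to library size, here with TMM factors) in the Dnmt1fl/fl samples and at 37.0 and 42.7 in the Dnmt1KO samples. On the log2 scale the difference, Dnmt1KO minus Dnmt1fl/fl, was -0.95 ± 0.24 (SE), with an unadjusted p of 0.00839 and an adjusted p of 1.00 in the quasi-likelihood test of edgeR. Lyz2, the gene whose promoter is called LysM, was at 29531 and 28587 CPM in Dnmt1fl/fl and at 11351 and 15745 in Dnmt1KO. All 10 macrophage markers were tested, with a median log2 fold change of 0.03, and 0 of the 10 passed the adjusted test. Dnmt1KO replicate 1 stood apart in neutrophil, B cell and stromal markers. Of 10 neutrophil markers 7 were tested, and their summed level was 735 CPM in that sample and 67.3 to 190 in the other three. All 10 B cell markers were tested and summed to 190 CPM there against 421 to 644 in the others, and the 10 mesothelial and fibroblast markers to 145 against 35.6 to 75.1. Long genes were also relatively low in Dnmt1KO replicate 1. At a merged exon length of 9841 bases the trend of that sample stood at -0.277 on the log2 scale relative to the mean of the samples, and at 1716 bases at 0.202. The part of the cell type markers in the results was not tested. In bulk RNA fewer cells of a type and less RNA per cell cannot be told apart.

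The study asked what the loss of Dnmt1 does to gene expression in macrophages, and here this question was put to the PRC2 genes. None of the 10 passed the test. With edgeR's quasi-likelihood test, 0 of 10 had an adjusted p under 0.05, which was also the case for 0% of all genes tested, and 0 of 10 had an unadjusted p under 0.05, against 0.279% of all genes. DESeq2 and limma-voom also called 0 of the 10. The log2 fold changes ran from -0.50 in Phf19 to 0.19 in Kdm6b, 5 above 0 and 5 below, where 49.1% of all genes were below, with a median of -0.0052 beside 0.0046 over all genes. The intervals leave room for changes of moderate size. For the genes other than Phf19, the 95% intervals reached down to a 0.584-fold level in Jarid2 and up to a 1.89-fold level in Kdm6b, and for Phf19 they ran from 0.304-fold to 1.64-fold.

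**Figure D1:**
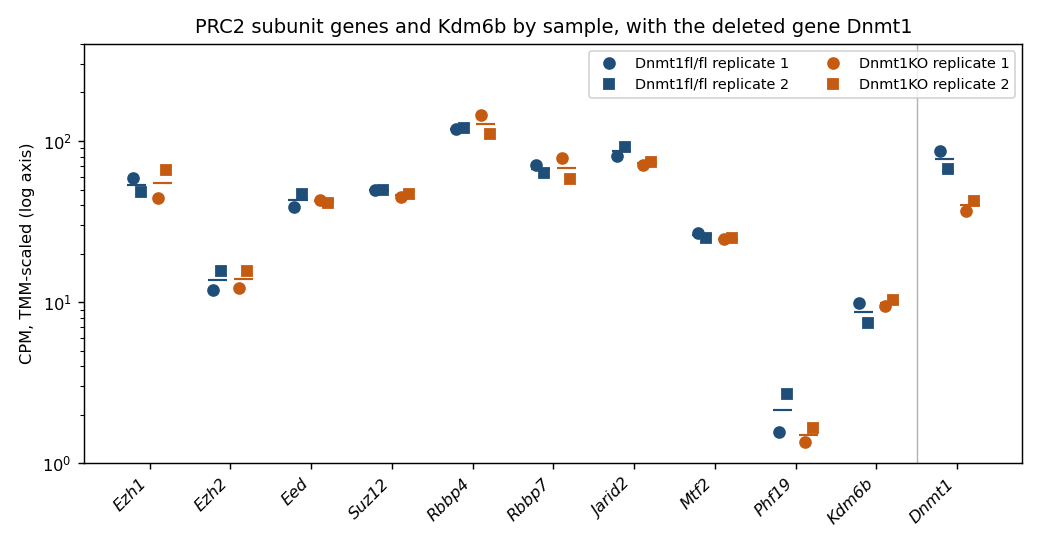
Level of each gene in each of the 4 samples, in CPM after TMM scaling on a log axis; circles are replicates 1, squares replicates 2, and horizontal lines the genotype means. Dnmt1 separates the genotypes, with 67.0 and 86.6 CPM against 37.0 and 42.7. In 3 of the 10 members the genotypes do not overlap, against 16.7% of all genes.

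Of the catalytic subunits, Ezh1, which GENCODE places on GRCm38 chromosome 11 at 101191115 to 101226463, was at 58.6 and 48.4 CPM in Dnmt1fl/fl replicates 1 and 2, and at 44.6 and 65.9 in Dnmt1KO replicates 1 and 2. The Dnmt1KO samples were the lowest and the highest of the 4, so the genotypes overlapped. The log2 fold change was 0.05 (standard error 0.27, 95% interval -0.63 to 0.72, adjusted p = 1.00 from edgeR). It was 0.30 without Dnmt1KO replicate 1 and -0.26 without Dnmt1KO replicate 2.

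Ezh2, on chromosome 6 from 47530139 to 47595341, was at 11.9 and 15.7 CPM in Dnmt1fl/fl and at 12.3 and 15.6 in Dnmt1KO macrophages. The replicates 1 of both genotypes were low and the replicates 2 high, so that each genotype spanned nearly the same range. The fold change was 0.02 on the log2 scale (standard error 0.29, 95% interval -0.69 to 0.73, adjusted p = 1.00 from edgeR), smaller than the pooled SD between replicates of 0.26. It ran from -0.17 without Dnmt1fl/fl replicate 1 to 0.24 without Dnmt1fl/fl replicate 2.

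The balance of the pair was compared within each sample, where scaling between samples plays no part. The Ezh2 count was 20.3% and 32.5% of the Ezh1 count in the Dnmt1fl/fl samples, and 27.6% and 23.7% in the Dnmt1KO samples. Both Dnmt1KO values lay between the Dnmt1fl/fl values. The log2 ratio was -1.96 ± 0.48 (SD, n = 2) in Dnmt1fl/fl and -1.97 ± 0.15 (SD, n = 2) in Dnmt1KO, with a two-sided exact permutation p of 1 for the difference, where the smallest p that 2 samples against 2 allow is 0.333. This near-0 difference was a balance of opposite ones, since it was 0.44 between the replicates 1 and -0.45 between the replicates 2, and it was -0.34 without Dnmt1fl/fl replicate 1 and 0.33 without Dnmt1fl/fl replicate 2. Per kilobase of merged exons, Ezh1 was above Ezh2 in all 4 samples, by 3.56 ± 0.712 times (SD, n = 4), or by 2.62 ± 0.525 times (SD, n = 4) per kilobase of the longest transcript.

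Among the core subunits, Suz12, on chromosome 11 from 79993106 to 80034123, was at 49.7 and 50 CPM in Dnmt1fl/fl and at 45.2 and 47.0 in Dnmt1KO macrophages. Both Dnmt1KO samples were below both Dnmt1fl/fl samples, and the difference was small. On the log2 scale it was -0.11 (standard error 0.20, 95% interval -0.60 to 0.38, adjusted p = 1.00 from edgeR), and it was larger than the pooled SD between replicates of 0.03.

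Eed, on chromosome 7 from 89954654 to 89980983, was at 39.0 and 47.1 CPM in Dnmt1fl/fl and at 43.1 and 41.5 in Dnmt1KO macrophages. Both Dnmt1KO samples lay between the Dnmt1fl/fl samples, and the log2 fold change was -0.03 (standard error 0.21, adjusted p = 1.00 from edgeR).

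Rbbp4 and Rbbp7 encode similar histone-binding proteins that also serve in other chromatin complexes. Rbbp4, on chromosome 4 from 129307100 to 129335370, was at 118 and 120 CPM in Dnmt1fl/fl and at 146 and 110 in Dnmt1KO macrophages. Rbbp7, on the X chromosome from 162760402 to 162779092, was at 70.9 and 63.7 CPM in Dnmt1fl/fl and at 78.2 and 58.0 in Dnmt1KO macrophages. In both genes Dnmt1KO replicate 1 was the highest sample and Dnmt1KO replicate 2 the lowest, the reverse of Ezh1. The log2 fold changes were 0.10 (standard error 0.24) for Rbbp4 and 0.02 (standard error 0.24) for Rbbp7, and edgeR gave an adjusted p of 1.00 for both. Without Dnmt1KO replicate 1 both turned to the other side of 0, at -0.12 and -0.22, and after the correction for gene length Rbbp4 was at 0.26. The Rbbp7 count was between 52.8% and 60.0% of the Rbbp4 count in the 4 samples, and the log2 ratio was -0.82 ± 0.12 (SD, n = 2) in Dnmt1fl/fl and -0.91 ± 0.02 (SD, n = 2) in Dnmt1KO macrophages, with overlapping genotypes (two-sided exact permutation p = 0.667).

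Of the accessory subunits, Jarid2, on chromosome 13 from 44729474 to 44921643, was at 81.0 and 91.3 CPM in Dnmt1fl/fl and at 71.4 and 73.7 in Dnmt1KO macrophages. Both Dnmt1KO samples were below both Dnmt1fl/fl samples. The log2 fold change was -0.25 (standard error 0.21, 95% interval -0.78 to 0.28, adjusted p = 1.00 from edgeR). Of the 10 genes it had the lowest unadjusted p, at 0.289, and 1204 genes of the table had a lower one.

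Mtf2, on chromosome 5 from 108065674 to 108109004, was at 27.0 and 25.1 CPM in Dnmt1fl/fl and at 24.5 and 25 in Dnmt1KO macrophages. The genotypes did not overlap, but the nearest samples differed by less than the Dnmt1fl/fl samples did. Mtf2 differed by -0.07 on the log2 scale (standard error 0.21, 95% interval -0.58 to 0.44, adjusted p = 1.00 from edgeR).

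Phf19, on chromosome 2 from 34893757 to 34914026, was the least counted member, with 32 and 68 counts in Dnmt1fl/fl and 27 and 39 in Dnmt1KO macrophages. These counts correspond to 1.56, 2.71, 1.36 and 1.65 CPM. Dnmt1fl/fl replicate 2 was high and the other three were close together, so the genotypes overlapped. Phf19 differed by -0.50 on the log2 scale (standard error 0.49, 95% interval -1.72 to 0.71, adjusted p = 1.00 from edgeR). It was the largest of the 10 in size, and it ran from -0.84 without Dnmt1fl/fl replicate 1 to -0.04 without Dnmt1fl/fl replicate 2.

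Kdm6b, on chromosome 11 from 69398508 to 69413675, was at 9.89 and 7.42 CPM in Dnmt1fl/fl and at 9.49 and 10.3 in Dnmt1KO macrophages. Dnmt1fl/fl replicate 2 was low and the genotypes overlapped. For Kdm6b the log2 fold change was 0.19 (standard error 0.29, 95% interval -0.54 to 0.92, adjusted p = 1.00 from edgeR). It ran from 0.002 without Dnmt1fl/fl replicate 2 to 0.41 without Dnmt1fl/fl replicate 1. Kdm6a, the other H3K27 demethylase and no member of the 10, was at 38.0 and 35.6 CPM in Dnmt1fl/fl and at 22.0 and 41.4 in Dnmt1KO macrophages. Dnmt1KO replicate 1 was low and Dnmt1KO replicate 2 the highest. Its log2 fold change was -0.22 (standard error 0.33, adjusted p = 1.00 from edgeR). It was 0.17 without Dnmt1KO replicate 1 and -0.74 without Dnmt1KO replicate 2. The latter leaves Dnmt1KO replicate 1, the sample that stood apart in cell type markers, alone in its genotype. The Kdm6b count was 26.0% and 20.9% of the Kdm6a count in Dnmt1fl/fl and 43.2% and 24.8% in Dnmt1KO macrophages, with overlapping genotypes (two-sided exact permutation p = 0.667). Ratios were tested for 3 pairs, Ezh2 to Ezh1, Rbbp7 to Rbbp4 and Kdm6b to Kdm6a, and none could pass a threshold of 0.05 in this design.

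**Figure D2:**
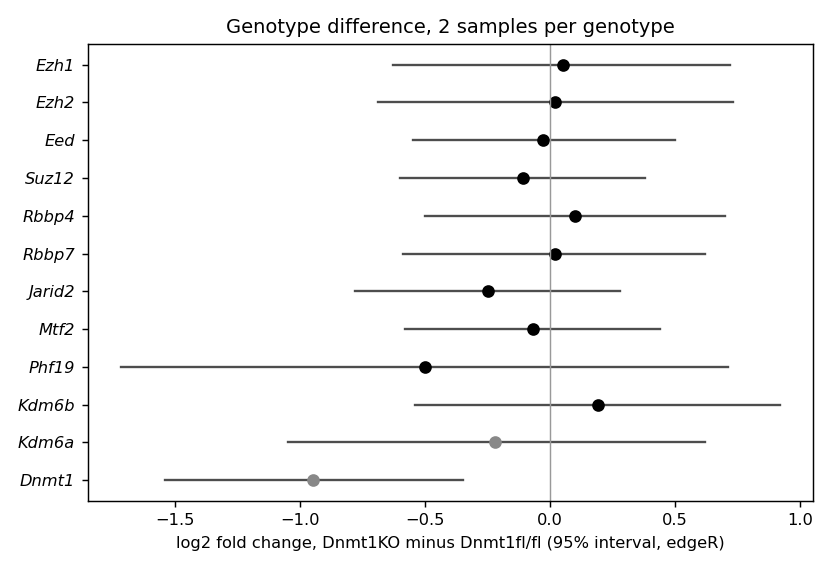
Log2 fold change of each gene, Dnmt1KO minus Dnmt1fl/fl, with its 95% interval from edgeR's quasi-likelihood fit; the points of the members are in black, and those of Kdm6a and Dnmt1 in grey. The intervals of the 10 members and of Kdm6a span 0, and that of Dnmt1 runs from -1.54 to -0.35.

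In 3 of the 10 genes, Suz12, Jarid2 and Mtf2, both Dnmt1KO samples were below both Dnmt1fl/fl samples, and in 0 were both above. Over all genes, both Dnmt1KO samples were below in 8.56% and above in 8.14%, together 16.7%. The count changed with a correction for gene length. After the trend of each library with gene length was removed, the genotypes of all these 3 genes overlapped, with log2 fold changes of -0.05 for Suz12, -0.12 for Jarid2 and 0.01 for Mtf2. Kdm6b, at 0.30, was then the 1 member whose genotypes did not overlap, with both Dnmt1KO samples above. The 16.7% over all genes is from the fit without this correction, so it is no measure for this count. Dnmt1KO replicate 1 was the lowest sample for all 3 genes. Long genes were relatively low in that sample, and it also stood apart in cell type markers. What made the genotypes of these 3 genes separate was not tested. Suz12, Jarid2 and Mtf2 have 4945, 9715 and 5698 bases of merged exons.

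**Figure D3:**
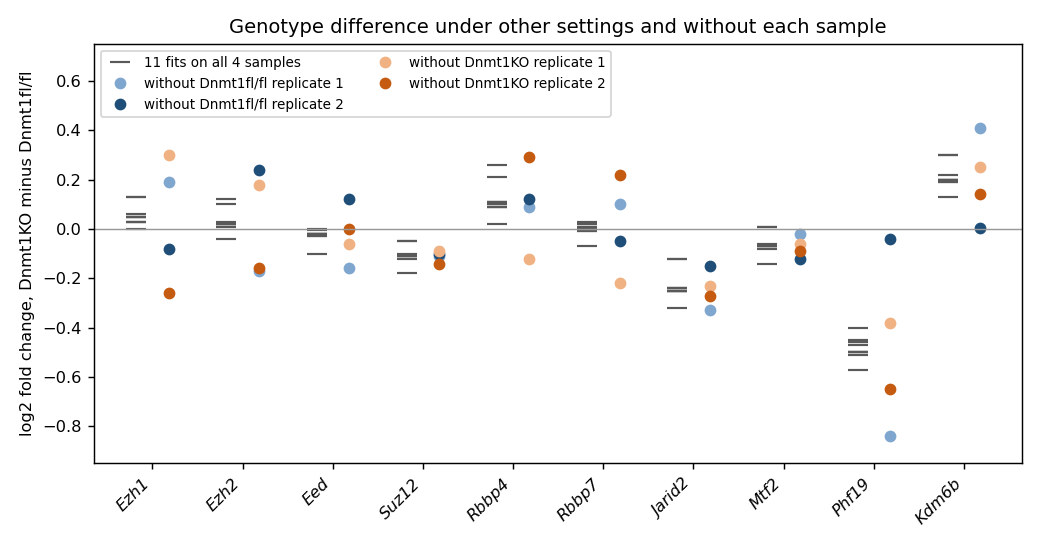
Log2 fold change of each member, Dnmt1KO minus Dnmt1fl/fl. Grey marks show the 11 fits on all 4 samples and coloured points the fits without each sample; Suz12 and Jarid2 stay below 0 in all of them, whereas Ezh1 runs from -0.26 to 0.30 when a sample is left out.

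Levels of different genes were compared per kilobase of merged exons. The order over the 4 samples, in CPM per kilobase, was Rbbp7 at 23.3 ± 3.01 (SD, n = 4), Rbbp4 at 14.1 ± 1.78, Eed at 11.2 ± 0.887, Suz12 at 9.7 ± 0.46, Jarid2 at 8.17 ± 0.922, Ezh1 at 7.31 ± 1.3, Mtf2 at 4.46 ± 0.193, Ezh2 at 2.08 ± 0.31, Kdm6b at 1.33 ± 0.183 and Phf19 at 0.361 ± 0.12. The ranges of neighbours in this order overlapped for Suz12 with Jarid2 and for Jarid2 with Ezh1, and the lowest Eed sample, at 10.2, barely cleared the highest Suz12 sample, at 10.1. Per kilobase of the longest transcript Ezh1 was at 12.9 ± 2.3 (SD, n = 4), ahead of Suz12 at 11 ± 0.52 with overlapping ranges. Ezh2, Kdm6b and Phf19 were the 3 lowest with either length. The scaffold, EED and the histone-binding subunits were thus all measured above Ezh2 in every sample on both scales.

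**Figure D4:**
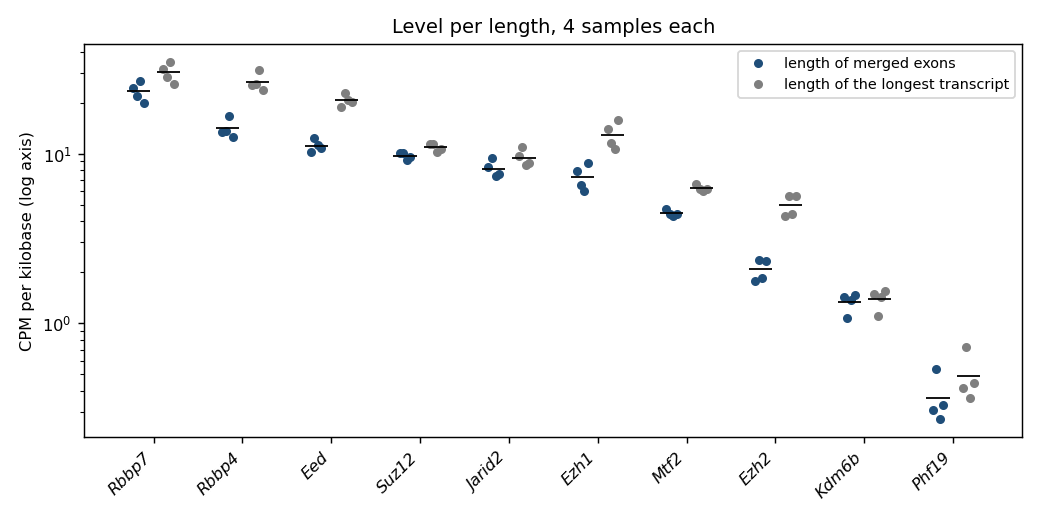
Level per length in each of the 4 samples, in CPM per kilobase on a log axis, with the length of merged exons in blue and of the longest transcript in grey; horizontal lines are means. Rbbp7 is highest and Phf19 lowest with either length, at 23.3 and 0.361 CPM per kilobase of merged exons.

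Some deposited values were not whole numbers, and how reads that match several genes were counted is not stated. Values that are not whole numbers occurred in all 4 samples for Eed and for Jarid2, in 2 samples for Rbbp4 and in 1 for Mtf2, and in none for the other 6. Exons of another gene covered 18% of the merged exons of Rbbp4, from Gm26722 and Sync, 6.93% of Mtf2 and 6.82% of Eed, and 0% of Jarid2, Ezh1 and Phf19. Of the 100-base stretches of Rbbp4 transcripts, 14.5% also occurred in transcripts of other genes. The share was 4.33% for Mtf2, 4.03% for Eed, 3.83% for Rbbp7, 1.58% for Suz12 and 0.773% for Kdm6b, and 0% for the other 4.

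The rest of the Polycomb system was read from gene lists, and 0 of their genes passed the adjusted edgeR test. Of 6 other PRC2 subunits or inhibitors 5 were tested, with a median log2 fold change of -0.12 that was 0.09 without Dnmt1KO replicate 1, 1 of them (20%) with non-overlapping genotypes, against 16.7% of all genes. This was Aebp2, a zinc-finger subunit, at 65.6 and 61.3 CPM in Dnmt1fl/fl and 57.2 and 60.0 in Dnmt1KO macrophages. All 22 subunits of PRC1, the complex that ubiquitinates histone H2A, were tested. Their median was -0.04, or 0.03 without Dnmt1KO replicate 1, and in 4 genes both Dnmt1KO samples were above and in 0 below, together 18.2% against 16.7% of all genes. Among the 4 were the chromobox genes Cbx6, at 3.51 and 2.95 against 3.84 and 4.32 CPM, and Cbx8, at 10.2 and 10.2 against 12.1 and 11.9 CPM. None of the 9 tested subunits of the opposing H2A deubiquitinase separated the genotypes, and neither did any of the 5 H3K36 methyltransferases. The deubiquitinase median was -0.03, but 0.31 without Dnmt1KO replicate 1 and -0.49 without Dnmt1KO replicate 2. The methyltransferase median was -0.16, but 0.02 after the length correction, 0.17 without Dnmt1KO replicate 1 and -0.48 without Dnmt1KO replicate 2.

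Kdm6a and the Kmt2c and Kmt2d complexes that hold it formed a list of 10 genes, all tested, with a median log2 fold change of 0.02 that was 0.11 without Dnmt1KO replicate 1 and -0.12 without Dnmt1KO replicate 2. In 3 of the 10 the genotypes did not overlap, against 16.7% of all genes. Paxip1, a subunit of these complexes, was at 22.7 and 22.5 CPM in Dnmt1fl/fl and 15.7 and 22.1 in Dnmt1KO macrophages. Pagr1a, its partner, was at 0.146 and 0.678 against 6.82 and 10.2 CPM. It was the 1 gene of the list with an unadjusted p under 0.05 in edgeR, at 0.00102 (adjusted p = 1.00), as had 0.279% of all genes. Other genes overlap 98.7% of its exons, and 87.0% of its 100-base stretches occur in transcripts of Gm42742. Of the 18 subunits of other complexes that hold Rbbp4 or Rbbp7, all were tested, with a median of 0.12 that was 0.02 without Dnmt1KO replicate 1 and 0.29 without Dnmt1KO replicate 2. In 5 of the 18 both Dnmt1KO samples were above, against 8.14% of all genes. Among them were Chaf1b, a subunit of the chromatin assembly factor that follows replication, at 4.38 and 5.22 against 8.94 and 5.38 CPM, and Mta3 of the NuRD complex, at 32.6 and 28.7 against 40.6 and 34.9 CPM.

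**Figure D5:**
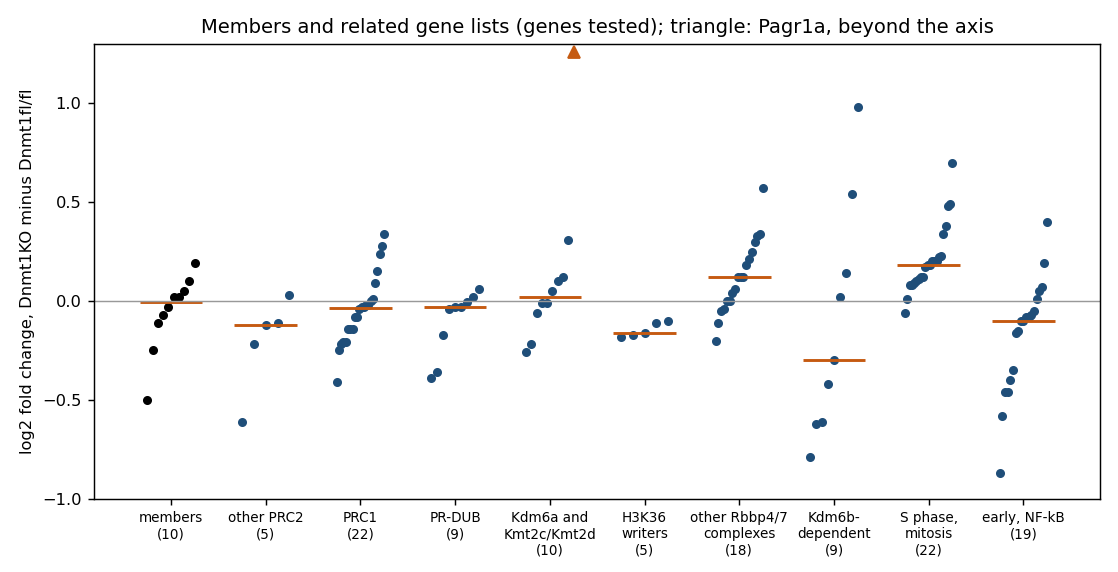
Log2 fold change, Dnmt1KO minus Dnmt1fl/fl, of each tested gene in the members and in related lists, with the number of genes tested in brackets and orange lines at the medians. The members lie between -0.50 and 0.19 around a median of -0.0052, and Pagr1a, at a fitted 4.31, is beyond the axis.

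Genes known to be silenced by PRC2 in differentiated cells, most of them Hox genes, were largely out of reach, since the table lists only genes with a value above 0 in every sample. Of 52 such genes 12 were listed and 4 were tested, with a median of -0.19, or 0.04 with DESeq2, which tested more of them. It was 0.05 without Dnmt1KO replicate 1, also 0.05 without Dnmt1fl/fl replicate 1 and -0.53 without Dnmt1KO replicate 2. In 1 of the 4, Cdkn2b, an inhibitor of the cell cycle, the genotypes did not overlap, against 16.7% of all genes, at 0.731 and 0.877 CPM in Dnmt1fl/fl and 0.303 and 0.636 in Dnmt1KO macrophages. Of 10 genes reported to need Kdm6b in macrophages 9 were tested, 4 above 0 and 5 below, with a median of -0.30. This median was -0.03 without Dnmt1fl/fl replicate 2, but -0.47 without Dnmt1fl/fl replicate 1 and -0.43 without Dnmt1KO replicate 1. In 2 of the 9 both Dnmt1KO samples were below, against 8.56% of all genes: Bmp2, a growth factor, at 22.8 and 23.1 against 13.4 and 16.5 CPM (unadjusted p = 0.0428, adjusted p = 1.00 from edgeR), and the chemokine Ccl22, at 2.44 and 2.67 against 1.82 and 1.14 CPM.

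Cell division and inflammatory state were read beside Ezh2 and Kdm6b. The 22 S phase and mitosis genes had a median log2 fold change of 0.18, with 21 above 0. The genotypes did not overlap in 3, or 13.6%, against 16.7% of all genes, among them Cdc20, at 1.66 and 2.79 against 4.19 and 3.09 CPM, and Ccnb2, at 1.41 and 2.91 against 3.13 and 2.92 CPM. Their summed level was highest in Dnmt1KO replicate 1, at 603 CPM against 363 to 463 in the others, and the median was -0.08 without that sample. Ezh2 was at 11.9 and 15.7 CPM in Dnmt1fl/fl and 12.3 and 15.6 in Dnmt1KO macrophages. The 19 tested immediate early and NF-kB response genes had a median of -0.10, which was -0.65 without Dnmt1KO replicate 1 and 0.20 without Dnmt1KO replicate 2. In 2 of the 19, or 10.5%, the genotypes did not overlap, against 16.7% of all genes, and both had the Dnmt1KO samples below: Tnfaip3, an inhibitor of NF-kB signalling, at 93.9 and 66.7 against 62.8 and 44.7 CPM, and the transcription factor Egr1, at 13.5 and 11.3 against 8.43 and 9.62 CPM. The summed level of this list was lowest in Dnmt1KO replicate 2, at 1191 CPM against 1711 to 1955 in the others. Kdm6b was at 9.89 and 7.42 CPM in Dnmt1fl/fl and at 9.49 and 10.3 in Dnmt1KO macrophages. Whether its level goes with that of the list was not tested.

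The chromatin genes whose profiles lay closest to those of Ezh1, Ezh2 and Kdm6b were picked by the root mean square difference of centred log2 CPM over the 4 samples, among 78 genes. Closest to Ezh1 were Ncoa6, Gatad2b and Setd2, at 0.06, 0.06 and 0.08, where the median of the 78 was 0.27. Closest to Ezh2 were Pcgf1, Pcgf2 and Bap1, at 0.08, 0.13 and 0.14, with a median of 0.28. Closest to Kdm6b were Cbx6, Chd4 and Mta1, at 0.09, 0.10 and 0.11, with a median of 0.25. With 4 samples many genes can share a profile, and these values are a description only.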

How the data were processed

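Per the labels and the study's methods, total RNA was sequenced as paired-end reads, aligned to mm10 with HISAT2 2.0.5 and counted per gene with featureCounts 1.5.0-p3, versions from the submitters' processing notes, which also name DESeq2 1.20.0. The annotation, strand setting and handling of reads matching several genes are not given in the sources used here. The authors deposited estimated counts per gene, not normalized, of which 72.6% to 76.4% per sample were whole numbers; a shorter table of picked genes was not used. Counts were rounded, filtered with filterByExpr (minimum count 10), scaled with TMM and compared with edgeR 4.0.16 (R 4.3.3), two-sided, with Benjamini-Hochberg adjustment over 12542 genes and no block. Genes varied between replicates by a common dispersion of 0.0837, or a CV of 28.9%. Intervals come from the quasi-likelihood standard error.

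Other settings tried were limma-voom (limma 3.58.1), DESeq2 1.42.0, RLE and total-count scaling, 2 other filters, the replicate number as a block, a loess correction (span 0.5) of log2 CPM for merged exon length (GENCODE M21; 98.7% of genes had one) and leaving out each sample. The crossed pairing was added after seeing the data. Log2 CPM used a prior count of 1. SciPy 1.17.1 gave exact permutation tests. Named genes are the 10 members, Dnmt1, Kdm6a, up to 2 genes per list with the largest fold change among those with non-overlapping genotypes, and the closest profiles. Members and lists were chosen with earlier results of these data known. Protein sequences were not used here.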

Additional observations from a re-analysis of the deposited data

How the results depend on the processing

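The 10 members had 0 calls at an adjusted p under 0.05 in every fit run, the 11 on all 4 samples and the 4 without a sample. In the latter the sample left alone in its genotype is assumed to vary like the other genotype. Of all genes, 0 were called by edgeR, 35 had an unadjusted p under 0.05, 1 was called by DESeq2, 3 with the crossed pairing and 2 with length correction and replicate block together. Of the list genes 0 were called by edgeR, 1 by DESeq2 (Pagr1a), 2 with the crossed pairing (Pagr1a and S100a9) and 1 with length correction and replicate block (Pagr1a). Without 1 sample, calls over all genes ran from 0 to 1061 and over the list genes from 0 to 42, both highest without Dnmt1KO replicate 2; next were 10 and 4 without Dnmt1fl/fl replicate 2. Kdm6a, at -0.74 (adjusted p = 0.045 from edgeR), and Dnmt1, at -1.05 (adjusted p = 0.02), were among the calls without Dnmt1KO replicate 2. The cause was not tested.

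Same-numbered samples deviated in opposite directions (correlation of deviations -0.348 across genes, which are not independent replicates), and the labels name no pairing. With the replicate block the calls stayed at 0, among members and all genes alike, and the median log2 fold change of the members was -0.0090. For the Ezh2 to Ezh1 ratio the mean difference paired by number, -0.0047, equals the unpaired one by construction.

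The number of members with non-overlapping genotypes was 3, but 2 with total counts only and 1 with length correction; without 1 sample it ran from 5 to 7, where a lone sample overlaps less by construction. The share over all genes, 16.7%, was taken in the main fit alone and is no measure for the other counts. The median log2 fold change of the members was -0.08 with total counts only, which moved the median of all genes to -0.06. Without 1 sample the median of the members ran from -0.11 to -0.05. Directions turned under total counts only for Ezh1 (-0.0019), Ezh2 (-0.04) and Rbbp7 (-0.07), and with length correction for Mtf2 (0.01, and 0.0087 with the block) and Rbbp7 (-0.0096, and -0.01 with the block). With 1 sample left out Ezh1 ran from -0.26 to 0.30, Ezh2 from -0.17 to 0.24, Eed from -0.16 to 0.12, Rbbp4 from -0.12 to 0.29, Rbbp7 from -0.22 to 0.22 and Kdm6a from -0.74 to 0.17. Suz12, Jarid2, Phf19 and Kdm6b kept their direction in every fit run. The ratio of Ezh1 to Ezh2 per kilobase was 3.56 with merged exons and 2.62 with the longest transcript.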

Other observations

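Resident large peritoneal macrophage markers, a list outside the Polycomb system, had 8 of 8 genes with a log2 fold change below 0 and a median of -0.41, which was 0.06 without Dnmt1KO replicate 1. In 2 of the 8 both Dnmt1KO samples were below, against 8.56% of all genes: the phosphatidylserine receptor Timd4, at 91.4 and 140 CPM in Dnmt1fl/fl and 67.6 and 78.8 in Dnmt1KO macrophages, and the adhesion molecule Icam2, at 41.4 and 72.2 against 28.4 and 40.5 CPM. None passed the adjusted edgeR test. T and NK cell markers had a median of 0.04 over 11 genes, which ran from -0.17 without Dnmt1fl/fl replicate 1 to 0.45 without Dnmt1fl/fl replicate 2. The median of 7 dendritic cell markers was 0.17, but 0.59 without Dnmt1KO replicate 1 and -0.44 without Dnmt1KO replicate 2. That of 6 mast cell and eosinophil markers was -0.17, but -0.39 and 0.09 without the same samples. Among the T and NK cell markers 2 of 11 genes had non-overlapping genotypes, Cd4 with Dnmt1KO below and Trac with Dnmt1KO above. The mast cell proteases Cpa3 and Cma1, 2 of 6 genes, both had Dnmt1KO below. Over all genes the share without overlap was 16.7%. The summed level of the T and NK list ran from 34.8 to 56.6 CPM, and of 6 erythroid markers 1 was tested.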
